A study of Mus musculus with 12 samples.

Results

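The corticotropin-releasing hormone (CRH) and urocortin stress system was followed as 7 genes: the ligands Crh, Ucn, Ucn2 and Ucn3, the receptors Crhr1 and Crhr2, and the binding protein gene Crhbp. The members were chosen by name, as the rows of the deposited count table whose gene symbol equals 1 of these symbols. All 7 were found among the 43280 gene rows. Of these, 4 (Crh, Crhr1, Crhr2 and Crhbp) passed the filter on low counts and were tested together with 13104 genes in all, and Ucn, Ucn2 and Ucn3 did not pass it.

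CRH is the peptide with which neurons of the paraventricular nucleus of the hypothalamus start the endocrine stress response. It is released towards the pituitary, where CRHR1 drives the release of corticotropin, and this in turn drives glucocorticoid release from the adrenal gland. Urocortin binds both receptors, while urocortin 2 and urocortin 3 act mainly through CRHR2. Both receptors couple chiefly to the stimulatory G protein and cyclic AMP, and the secreted CRH binding protein holds the peptide away from them. In the neonatal rodent the axis is known for a period of low responsiveness to stress.

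The samples were hypothalami of C57/Bl6 male pups at postnatal day 6, with 6 pups in the control group and 6 in the group exposed to modified maternal separation (MMS), each giving 1 library. MMS pups were removed from the dam for a daily session over several days, kept on a heating pad and turned on to their backs whenever they righted themselves, and the tissue was taken directly after the last session. Control pups were littermates that did not undergo these sessions, so that pups of a litter can lie in both groups, and the labels do not give the litter. The whole hypothalamus was dissected by landmarks at the base of the brain, which limits the model to tissue averages. In such tissue, fewer cells of a type and less RNA per cell cannot be told apart.

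Library totals ranged from 3765759 to 6560620 counts in the control group and from 3218777 to 5344080 in the MMS group. Values are given as CPM, the count divided by the scaled library total and set to a common library size, where 1 count was worth 0.154 to 0.322 CPM. The libraries were made from the 3' end of the transcript, so that a molecule gives about 1 read whatever its length. MMS 2 and MMS 4 stood apart on the first principal component, at 57.8 and 46.3 against -14.4 to -3.04 in the other 10 libraries. In these libraries the summed level of 9 ependymal cilia markers was 16.7 and 36.7 CPM, against 80.8 CPM or more in the other 10, and that of 8 markers of neurons at large was 5836 and 5674 CPM, against 6403 CPM or more. Of these 8, Tubb3 was at 1280 and 1307 CPM against 2069 CPM or more, and Rbfox3 was also lower in both libraries than in the other 10. Gad1, Gad2 and Stmn2 were higher in both libraries than in the other 10. The 8 markers thus did not move together, and their sum does not stand for neurons as a whole. Control 3 held 1735 CPM of Ttr, a choroid plexus transcript, against 1.09 to 35.5 CPM in the other 11 libraries. All 10 hypothalamic identity genes looked for had counts, with a summed level of at least 224 CPM in every library. Summed levels overlapped between the groups for all 11 marker lists. Of the 66 marker genes tested, 4 were higher and 5 were lower in MMS at an unadjusted p under 0.05 in edgeR (13.6%, beside 9.08% of all genes). The estimates lay below 0 for 7 of 7 ependymal, 6 of 6 meningeal, 5 of 5 red blood cell and 4 of 4 choroid plexus markers tested, with median log2 fold changes of -0.78, -0.33, -0.36 and -0.16. Without MMS 2 and MMS 4 this held for 5 of 7, 5 of 6, 5 of 5 and 4 of 4, with medians of -0.26, -0.19, -0.27 and -0.27. The part of these markers in the results below was not tested. Of the 8 pituitary markers, Pou1f1 was at 0 in every library, and Prl and Lhb had 2 counts each over all libraries.

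The study designed qPCR primers for Crh and for Crhr1, and these are shown because they mark the part of each transcript that a PCR would read, beside the 3' end from which the libraries were made. In the list below each primer is written from its 5′ end, in lower case.
Crh forward: gaggcatcctgagagaagtcc
Crh reverse: tgttaggggcgctctcttc
Crhr1 forward: cttctccttctggggctga
Crhr1 reverse: aggtgccaatgaggtccac
In GENCODE release M21 for mm10, the forward primer of Crh matched the 5' UTR in exon 1 of 2, at chr3:19695213-19695233. Its reverse primer lay across the intron, with one end at chr3:19695167-19695170 in exon 1 and the other at chr3:19694476-19694490 in exon 2, where it crosses the start of the coding sequence. The primers of Crhr1 matched coding sequence in exon 2 of 13 (chr11:104153524-104153542) and in exon 3 (chr11:104159272-104159290). The amplicon of 82 bases ended 1075 bases before the end of the Crh transcript of 1320 bases. That of Crhr1, of 124 bases, ended 2083 bases before the end of a transcript of 2460 bases. The library type reads from the far ends of transcripts, and the positions of the reads were not analysed here.

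RefSeq promoter windows (250 bases before to 50 after the start site, GRCm38.p6) were searched for Crhr1, Crhr2, Crhbp, Ucn and Ucn3, 5 of the 7 members, on both strands. Crh and Ucn2 were not analysed here. The cyclic AMP response element TGACGTCA, the site through which cyclic AMP signalling acts on many peptide genes, occurred in 1 of the 5 windows, that of Ucn, and in 1.79% of all 32851 windows. It is shown in capitals in the 74 bases that lead up to the start site of Ucn, minus strand, at chr5:31138896-31138969, and it begins 44 bases before the start.
Ucn promoter: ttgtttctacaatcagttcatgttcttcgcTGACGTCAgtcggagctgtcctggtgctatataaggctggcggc
The partial element TGACG, which is contained in the full one, was held by 2 of the 5 windows (Ucn and Crhbp) and by 20.8% of all windows. The partial glucocorticoid response element AGAACA was found in the window of Ucn and in 19.0% of all windows. The NR4A element AAAGGTCA (1.51% of all windows) and the E-box CACGTG (7.15%) were found in 0 of the 5. A match describes letters in a window and shows no binding.

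None of the 4 members that passed the count filter passed the test between control and MMS pups. With edgeR, 0 of 4 had an adjusted p under 0.05 and 0 of 4 an unadjusted p under 0.05, where the background over all 13104 genes was 0% and 9.08% (1190 genes). DESeq2 and limma-voom likewise gave 0 of 4 at either threshold, with 7 and 0 genes past an adjusted p of 0.05 in all. In edgeR the smallest unadjusted p of a member was 0.157, that of Crhr1. None of the 7 members had groups that did not overlap, which was the case for 0.389% of the genes tested. The intervals below show which sizes of difference remain possible.

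**Figure D1:**
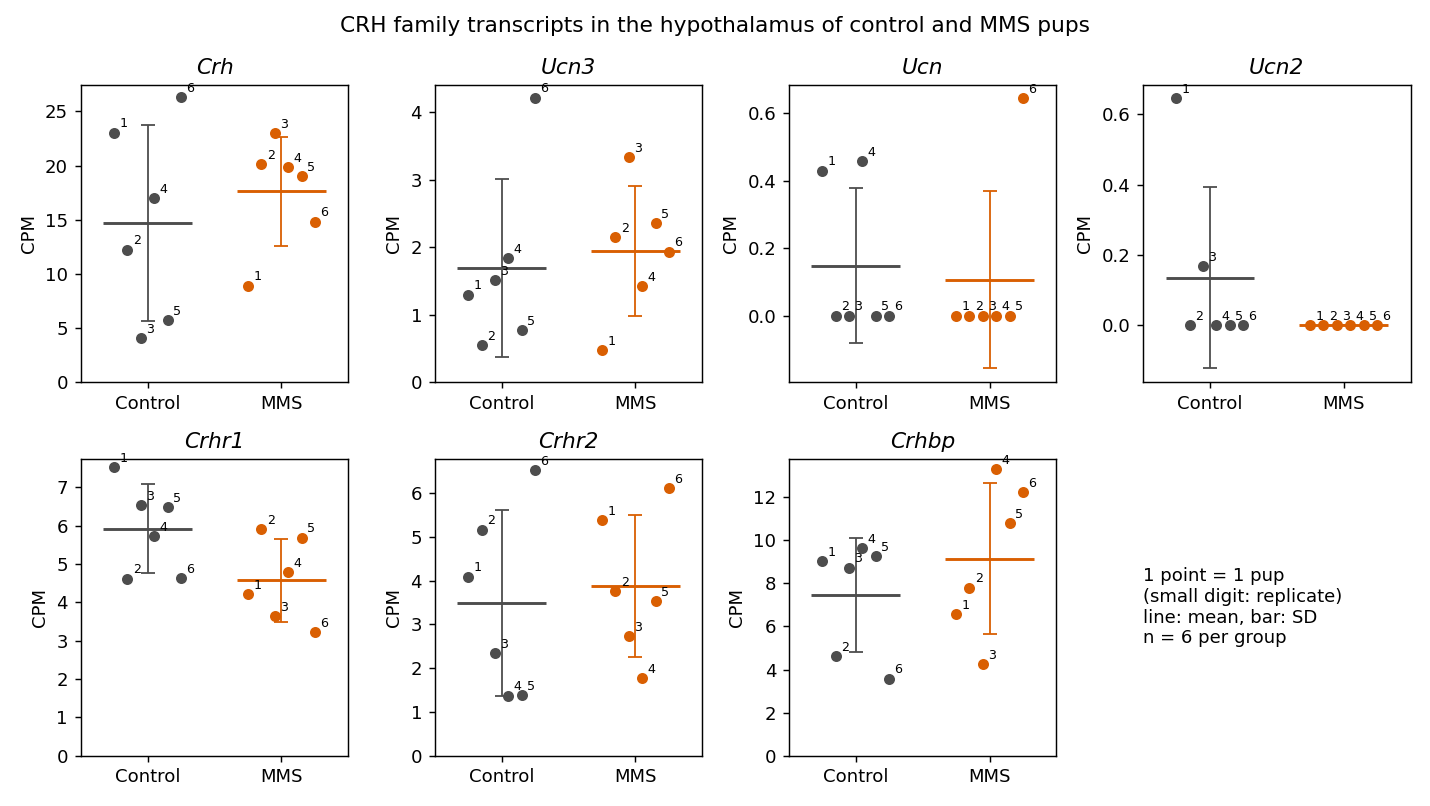
Each panel plots the CPM of 1 member (vertical axis) in the 6 control and 6 MMS pups, with 1 point per pup, a line at the mean and a bar of 1 SD. The groups overlap for every member, Crh spans 4.03 to 26.3 CPM in controls, and Ucn and Ucn2 lie at 0 in most pups.

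Crh (3:19693401-19695396, minus strand, 2 exons) was the most abundant member, with 856 counts over all libraries. In control pups it ranged from 4.03 CPM (control 3) over a median of 14.6 to 26.3 CPM (control 6). In MMS pups it ranged from 8.90 CPM (MMS 1) over a median of 19.4 to 23.0 CPM (MMS 3). The MMS values thus lay within the range of the controls, and 5 of 6 were above the control median. The group means were 14.7 ± 9.06 CPM (control) and 17.6 ± 5.03 CPM (MMS, SD over 6 pups each). The log2 fold change was 0.28 (SE 0.40), with a 95% interval of -0.58 to 1.14 (edgeR adjusted p = 0.835), which reaches from 0.668-fold to 2.20-fold. Controls 3 and 5, at 4.03 and 5.71 CPM, were the lowest of all 12 pups. Without control 6, the pup with the highest Crh, the log2 fold change was 0.54. Without control 3, the library with high Ttr, the log2 fold change was 0.07, and without control 5 it was 0.11. Without MMS 2 and MMS 4 it was 0.18.

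Crh varied between pups more than most genes of its abundance. Its coefficient of variation was 61.6% in controls and 28.5% in MMS pups, where counting error alone would give 11.9% in either group. Over both groups its biological coefficient of variation, the spread between pups beyond counting error, was 46.4% in edgeR. The median over the 2638 genes with a mean count within 1.5 times that of Crh was 20.6%, and 99.1% of these genes varied less. Avp and Oxt, the peptides of the magnocellular neurons of the same region, showed the like, with 57.2% and 47.5% at percentiles of 99.8 and 99.6 among genes of their own abundance. Vip, Cck, Pdyn and Trh were at percentiles of 100, 99.5, 99.3 and 97.2. Nts, Cartpt and Sst were at 84.4, 81.1 and 54.2. Penk was lowest, at 14.6% and the percentile 44.1. A wide spread was thus found for some, and not for all, of the peptides measured. The difference in spread of Crh between the groups was not tested.

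Ucn3 (13:3940688-3945349, minus strand) encodes urocortin 3, a ligand selective for CRHR2 that is made in the perifornical hypothalamus, among other places. It had 97 counts over all libraries, between 2 and 20 in each. It ranged in controls from 0.543 over a median of 1.40 to 4.21 CPM (control 6), and in MMS pups from 0.468 (MMS 1) over a median of 2.04 to 3.33 CPM (MMS 3). The groups overlapped widely, and the highest control lay above all MMS pups. The means were 1.69 ± 1.32 CPM (control) and 1.94 ± 0.958 CPM (MMS, SD over 6 pups each, two-sided exact permutation p = 0.719). Without the count filter the log2 fold change was 0.19 (95% interval -0.81 to 1.18, adjusted p = 0.914 in edgeR).

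Ucn and Ucn2 were barely detectable at this depth. Ucn (5:31138063-31138829, minus strand), the gene of urocortin, is best known from neurons of the midbrain. It had 4 counts over 2 controls and 2 counts in 1 MMS pup. The ratio of MMS to control, over pooled counts, was 0.594 with an exact interval for counting error of 0.0538 to 4.15 (CPM, two-sided exact permutation p = 1). Ucn2 (9:108986010-108987164, plus strand) had 4 counts over 2 controls, 3 of them in control 1, and 0 counts in MMS. A count of 0 over the MMS group allows up to 0.119 CPM, beside the pooled 0.134 CPM of controls. The exact interval for the ratio of MMS to control, 0 to 1.80, includes equal levels (CPM, two-sided exact permutation p = 0.455). Without the count filter, the edgeR fit gave Ucn2 an unadjusted p of 0.0421 and an adjusted p of 0.561, from these 4 counts. The exact intervals and the limit of 0.119 CPM come from counts pooled over pups, so they leave out variation between pups. Reads without molecular identifiers are not independent molecules, so these limits can be too narrow for counting error as well. Of the 963 ligand counts, 88.9% were of Crh and 10.1% of Ucn3, and Crh was above Ucn3 in 12 of 12 libraries.

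Of the receptors, Crhr1 (11:104132855-104175523, plus strand, 13 exons), which binds CRH and urocortin and is the receptor of the pituitary stress response, had the smallest p of the 4 members that passed the count filter. It had 298 counts, between 10 and 42 in each library. Controls ranged from 4.62 (control 2) over a median of 6.10 to 7.53 CPM (control 1). MMS pups ranged from 3.22 (MMS 6) over a median of 4.50 to 5.91 CPM (MMS 2). All 6 MMS pups lay below the control median, 3 of them below every control, and the other 3 within the control range. The means were 5.92 ± 1.16 CPM (control) and 4.58 ± 1.09 CPM (MMS, SD over 6 pups each). The log2 fold change was -0.36 (SE 0.25), with a 95% interval of -0.88 to 0.15 (edgeR adjusted p = 0.637), or 0.544-fold to 1.11-fold. The difference did not pass the test, and its sign was the same in all 12 fits that left out 1 library (-0.43 to -0.29). A two-sided exact permutation of CPM, not the planned test for members that passed the filter, gave p = 0.0693 for Crhr1. For Crh, Crhr2 and Crhbp it gave 0.506, 0.714 and 0.366. The spread of Crhr1 within a group was close to that of counting alone, at 19.5% against 18.7% in controls and 23.8% against 23.4% in MMS pups. Its biological coefficient of variation in edgeR, an estimate that draws on other genes as well, was 22.0%. Of the 1931 genes of like abundance, only 6.16% varied less.

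Crhr2 (6:55090049-55133016, minus strand, 13 exons in the longest coding transcript) is the receptor shared by all urocortins and is known in the ventromedial hypothalamus. It had 191 counts, between 6 and 31 in each library. It ranged from 1.38 (control 4) over a median of 3.22 to 6.53 CPM (control 6) in controls, and from 1.77 (MMS 4) over a median of 3.65 to 6.12 CPM (MMS 6) in MMS pups. All MMS values fell inside the control range. The means were 3.48 ± 2.13 and 3.88 ± 1.62 CPM (SD, n = 6 per group), with a log2 fold change of 0.16 (SE 0.40), a 95% interval of -0.67 to 0.99 and an edgeR adjusted p of 0.907. Its sign turned without control 5 (-0.01) or MMS 6 (-0.0014). The reads of the 9 annotated transcripts of Crhr2 were counted as 1 gene, so its receptor forms were not separated.

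Crhbp (13:95431371-95444924, minus strand), the gene of the binding protein, had 469 counts, between 14 and 75 in each library. Controls ranged from 3.58 (control 6) over a median of 8.88 to 9.63 CPM (control 4), and MMS pups from 4.24 (MMS 3) over a median of 9.29 to 13.3 CPM (MMS 4). MMS 4, 5 and 6 lay above every control and the other 3 MMS pups within the control range. The means were 7.47 ± 2.65 CPM (control) and 9.15 ± 3.53 CPM (MMS, SD over 6 pups each). The log2 fold change was 0.29 (SE 0.29), with a 95% interval of -0.30 to 0.88 (edgeR adjusted p = 0.745). It was 0.15 without MMS 4 and 0.17 without MMS 2 and MMS 4.

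**Figure D2:**
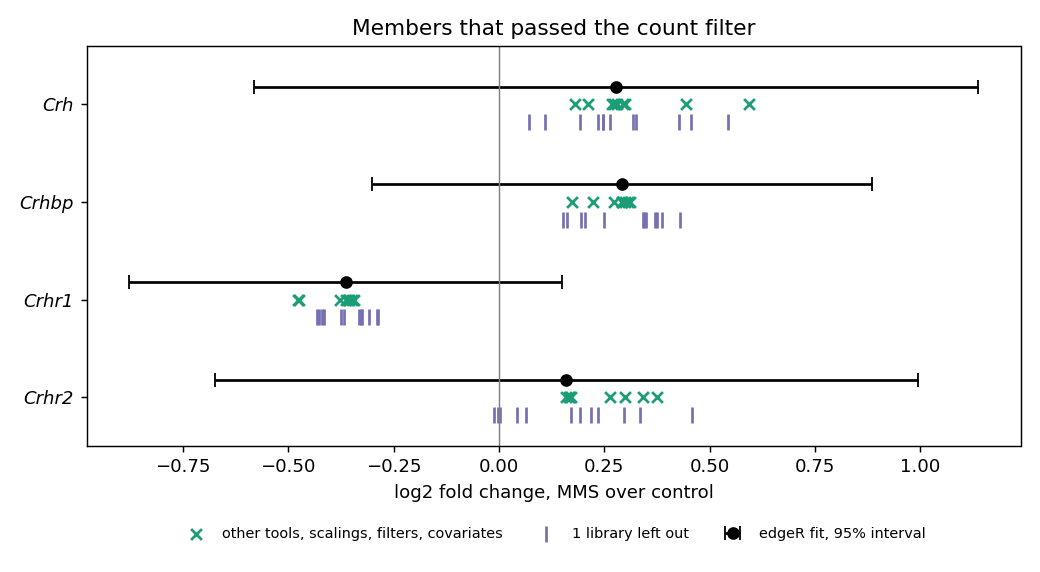
For the 4 members that passed the count filter, the horizontal axis gives the log2 fold change of MMS over control: the edgeR estimate with its 95% interval (circle), the estimates of other tools, scalings, filters and covariates (crosses), and those with 1 library left out (ticks). Every interval includes 0, from -0.58 to 1.14 for Crh and from -0.88 to 0.15 for Crhr1, and ticks of Crhr2 fall on both sides of 0.

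The balance of ligand and binding protein, and of the receptors, was compared within each library, where the scaling of libraries cancels. The log2 ratio of Crh to Crhbp counts was 0.76 ± 1.46 in controls and 0.97 ± 0.79 in MMS pups (SD, n = 6 per group), a difference of 0.21 (two-sided exact permutation p = 0.738). It ranged from -1.10 (control 3) to 2.84 (control 6) in controls and from 0.27 (MMS 6) to 2.40 (MMS 3) in MMS pups. Crh exceeded Crhbp in 10 of 12 libraries, and controls 3 and 5 were the exceptions. The sign of the difference turned without control 3 (-0.16), without control 5 (-0.08) or without MMS 3 (-0.07). The log2 ratio of Crhr1 to Crhr2 was 0.97 ± 1.10 in controls and 0.31 ± 0.81 in MMS pups (SD, n = 6 per group), a difference of -0.66 (two-sided exact permutation p = 0.260). Crhr1 exceeded Crhr2 in 8 of 12 libraries, 4 in each group. Without MMS 2 and MMS 4 the difference was -1.01 (two-sided exact permutation p = 0.148). The smallest p that this test allows with all libraries is 0.00216.

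**Figure D3:**
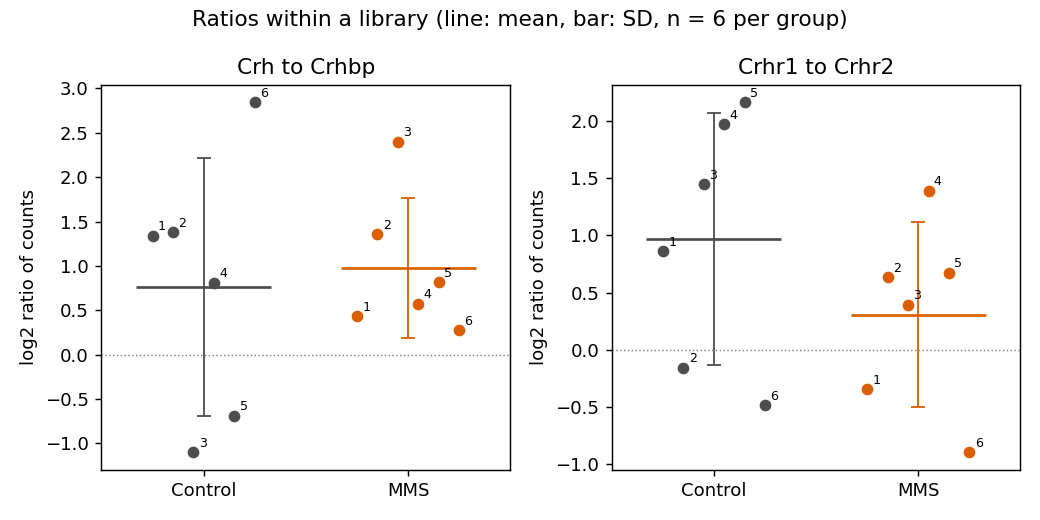
The vertical axes give the log2 ratio of counts within a library, Crh to Crhbp on the left and Crhr1 to Crhr2 on the right, with 1 point per pup, the mean as a line and the SD as a bar (n = 6 per group). The groups overlap in both panels, and controls 3 and 5 are the pups in which Crhbp exceeded Crh.

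Genes that work with the family were examined in 7 lists of 85 genes, of which 74 were tested. At an unadjusted p under 0.05, 6 were higher in MMS and 3 were lower, 12.2% in all beside 9.08% of all genes (4.68% higher and 4.4% lower). The number with an adjusted p under 0.05 was 0 in edgeR and limma-voom and 1 in DESeq2 (Nr4a1), and 9, 9 and 10 had an unadjusted p under 0.05. Without MMS 2 and MMS 4, 4 were higher and 1 was lower (6.76%, beside 5.03% of all genes), and of the 9 genes only Nr4a1 and Vgf kept an unadjusted p under 0.05. With all libraries the median log2 fold change was 0.02, against 0.0009 over all genes tested.

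Of 12 genes of neuropeptide processing and dense core granules, the vesicles from which CRH is released, 3 were higher at an unadjusted p under 0.05 and 0 were lower, with a median log2 fold change of 0.05. Scg2, Cpe, Pcsk1 and Pam were lower in MMS 2 and MMS 4 than in the other 10 libraries. Chgb and Cadps were higher in MMS 2 and MMS 4 than in any of the other 10. Chgb, the gene of the granule protein secretogranin 1, was at 214 ± 24.3 CPM (control) and 272 ± 50.4 CPM (MMS, SD over 6 pups each, log2 fold change 0.35, SE 0.12, adjusted p = 0.543 in edgeR). Vgf, a secreted neuropeptide precursor induced by nerve activity and growth factors, was at 334 ± 31.9 CPM (control) and 396 ± 22.9 CPM (MMS, SD over 6 pups each, log2 fold change 0.24, SE 0.09, adjusted p = 0.543 in edgeR), and 5 of 6 MMS pups lay above every control. The third was Chga, chromogranin A, at 0.30 on the log2 fold scale (SE 0.12, adjusted p = 0.543 in edgeR), which is named because of the small count and was chosen after its value was seen. Without MMS 2 and MMS 4 the log2 fold changes were 0.21 for Chgb, 0.25 for Vgf and 0.21 for Chga. The prohormone convertases Pcsk1 and Pcsk2, which cut such precursors, did not pass either threshold, with log2 fold changes of -0.29 and 0.05.

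Of the 12 transcription factors of CRH neurons and of the Crh gene, 1 was higher at an unadjusted p under 0.05 and 0 were lower. This was Nr4a1, an activity-induced nuclear receptor, at 1.03 on the log2 fold scale (SE 0.22, adjusted p = 0.340 in edgeR). The adjusted p was 0.0203 in DESeq2 and 0.260 in limma-voom. All 6 MMS pups lay above all controls for Nr4a1, at 15.1 to 22.7 CPM against 4.63 to 12.6 CPM. It was the only gene of the 74 without overlap of the groups, beside 0.389% of all genes tested. Next by p came Crtc1, a cyclic AMP-regulated coactivator, at -0.32 (SE 0.17, adjusted p = 0.566 in edgeR). Otp and Sim1, the factors that specify the paraventricular nucleus, were at 0.29 (SE 0.19) and 0.26 (SE 0.18), both with an unadjusted p over 0.05 (edgeR adjusted p = 0.635 and 0.637).

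Of 15 genes of the G protein, adenylyl cyclase and protein kinase A steps below the receptors, 1 was lower and 0 were higher at an unadjusted p under 0.05. This was Adcy6, an adenylyl cyclase, at 29.7 ± 3.04 CPM (control) and 22.3 ± 5.26 CPM (MMS, SD over 6 pups each, log2 fold change -0.42, SE 0.16, adjusted p = 0.543 in edgeR). Prkacb, a catalytic subunit of protein kinase A, was at 0.17 (SE 0.09, adjusted p = 0.584 in edgeR). Of 12 genes of receptor desensitisation and cyclic AMP breakdown, 1 was higher and 0 were lower at the same threshold. Pde4b, a phosphodiesterase that breaks down cyclic AMP, was at 53.0 ± 4.73 CPM (control) and 69.3 ± 15.5 CPM (MMS, SD over 6 pups each, log2 fold change 0.39, SE 0.13, adjusted p = 0.543 in edgeR). Its relative Pde4d, from 240 counts, was at 0.64 (SE 0.33, adjusted p = 0.563 in edgeR).

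Of 10 peptides of paraventricular and neighbouring neurons, 1 was higher and 0 were lower at an unadjusted p under 0.05. Nts, neurotensin, was at 0.33 on the log2 fold scale (SE 0.15, adjusted p = 0.543 in edgeR), and Cartpt, the gene of the CART peptide, at -0.30 (SE 0.15, adjusted p = 0.556 in edgeR). Of 14 related class B receptors and their peptides, 6 were tested and 1 was lower at an unadjusted p under 0.05, the parathyroid hormone receptor Pth1r at -0.38 (SE 0.17, adjusted p = 0.543 in edgeR). Next by p was Calcrl, the receptor chain for adrenomedullin and CGRP, at 0.25 (SE 0.20, adjusted p = 0.682 in edgeR). Of 10 genes listed for the axis beyond CRH, 7 were tested and 1 was lower at that threshold. This was the vasopressin receptor Avpr1a, at -0.45 (SE 0.19, adjusted p = 0.543 in edgeR). Avpr1b, the other vasopressin receptor listed, had 2 counts over all libraries and was not tested. The glucocorticoid receptor co-chaperone Fkbp5 was at 0.30 (SE 0.15, adjusted p = 0.555 in edgeR).

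The members were then compared with each other and Crh with the 10 peptides, as 20 correlations of log2 CPM over the 10 libraries other than MMS 2 and MMS 4, which were left out because they stood apart. None passed 0.05 after Benjamini-Hochberg adjustment over the 20 relations. The closest was that of Crh with Oxt, the oxytocin gene (r = 0.86, permutation p = 0.00374, adjusted 0.0748, rho = 0.70, permutation p = 0.0302, adjusted 0.267, n = 10). It rested on controls 3 and 5, since r was 0.44 without them. Within the 6 controls r was 0.98, and within the other 4 MMS libraries it was 0.22. In MMS 2 and MMS 4, Crh was at 20.1 and 19.9 CPM beside 191 and 124 CPM of Oxt. Next by the p of r came Crh with Penk (r = 0.76, permutation p = 0.00913, adjusted 0.0913, rho = 0.65, permutation p = 0.0483, adjusted 0.267, n = 10). For this relation r was 0.41 without controls 3 and 5, 0.91 within the 6 controls and 0.45 within the other 4 MMS libraries. Among the members, the correlation of Crh with Ucn3 was the strongest (r = 0.60, permutation p = 0.0652, adjusted 0.326, rho = 0.66, permutation p = 0.0434, adjusted 0.267, n = 10), and r was 0.85 without controls 3 and 5. Ucn3 had few counts in each library. Crh with Crhbp gave r = -0.30 (permutation p = 0.400, adjusted 0.603, n = 10) and Crhr1 with Crhr2 gave r = -0.51 (permutation p = 0.131, adjusted 0.420, n = 10), with rho of -0.22 (permutation p = 0.536, adjusted 0.802) and -0.53 (permutation p = 0.123, adjusted 0.411). Without the pair of libraries farthest from the median, r was -0.18 for the former and -0.59 for the latter.

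**Figure D4:**
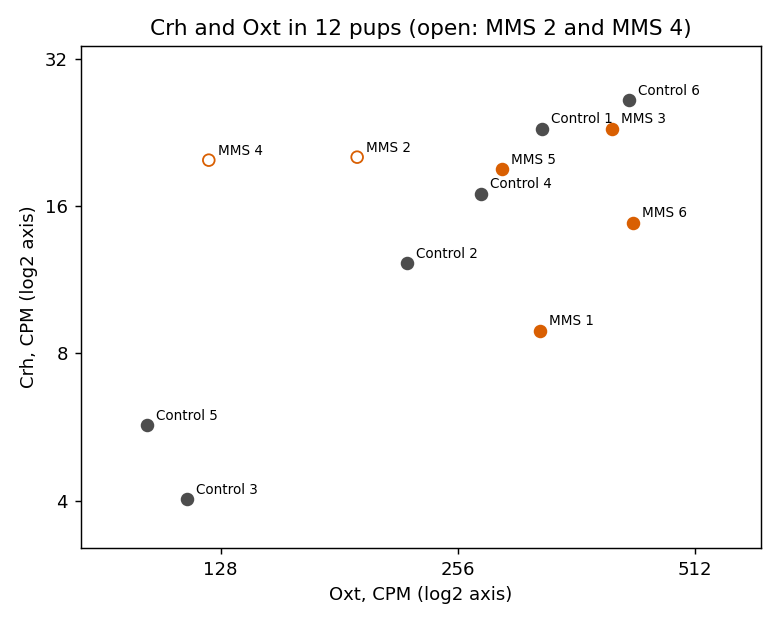
Crh (vertical axis, CPM) is plotted against Oxt (horizontal axis, CPM), both on log2 axes, with 1 point per pup (grey, control; orange, MMS; open, MMS 2 and MMS 4). Controls 3 and 5 sit at the lower left, and MMS 4 combines 19.9 CPM of Crh with 124 CPM of Oxt.

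The genes whose pattern over the same 10 libraries was most like that of each member, of 11745 with a mean of at least 20 counts (11746 for Crhr2), are given as a description. For Crh they were Stx16 (r = 0.91, rho = 0.87), Tmem246 (r = 0.91, rho = 0.75) and Parp11 (r = 0.89, rho = 0.88). For Crhr1 they were AI987944 (r = 0.94, rho = 0.95), Mcu (r = 0.92, rho = 0.93) and Cep290 (r = 0.91, rho = 0.83). For Crhr2 they included Ltv1 (r = 0.88, rho = 0.82) and Nkrf (r = 0.87, rho = 0.75). For Crhbp they were Ackr3 (r = 0.92, rho = 0.94), Akap13 (r = 0.90, rho = 0.76) and Dph7 (r = 0.89, rho = 0.93). These are the highest of many values over 10 libraries, and no member was among the 3 genes most like another. Crhr2, Ucn, Ucn2 and Ucn3 had a mean under 20 counts and so could not be among them. Without the pair of libraries farthest from the member's median, r was between 0.64 (Ltv1) and 0.90 (Ackr3).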

How the data were processed

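Hypothalamic RNA of 6 control and 6 MMS pups was made into 3' mRNA libraries (QuantSeq) and sequenced on an Ion Proton. The authors aligned reads to mm10 in Torrent Suite and deposited raw counts per gene, 1 column per library, without normalization. Which tool counted the reads, with which strand setting and annotation, is not given in the sources used here. GENCODE M21 gave coordinates (mm10, 1-based), and RefSeq the promoters. In GENCODE 0 genes overlap any member.

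Groups came from the sample titles. Over 30 pairs of libraries of a group, chi-square per degree of freedom was 4.04 to 31.5, so that the libraries within each group counted as separate. Pairs of a control and an MMS library were not compared in this way. Genes were tested with edgeR 4.0.16 in R 4.3.3 (quasi-likelihood, robust, TMM scaling, minimum count 10, minimum total 15), two-sided, and adjusted by Benjamini-Hochberg over 13104 genes. The SE is the log2 fold change divided by the root of F. CPM used the scaled totals of the tested genes, which held 99.6% of counts. Members below the filter, and log2 ratios with a pseudocount of 0.5, were tested by exact permutation over 924 splits. Correlations used log2 CPM with a prior count of 2 and 100000 permutations, and were chosen after the data were seen. DESeq2 1.42.0, limma-voom (limma 3.58.1), other scalings and filters, 1 surrogate variable (sva 3.50.0), a replicate block and left-out libraries were alternatives. The fits were tested on simulated data.

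Genes named were the 7 members, the 2 genes of each pathway list with the smallest p, and the 3 genes most like each tested member, of which 1 is not reported here. Otp, Sim1, Pcsk1, Pcsk2, Avp, Oxt, Vip, Cck, Pdyn, Trh, Sst and Penk were named after their values were seen. The same holds for Chga, Scg2, Cpe, Pam, Cadps, Avpr1b, Tubb3, Rbfox3, Stmn2, Gad1, Gad2, Ttr, Pou1f1, Prl and Lhb. Members and lists were chosen with earlier results of these data known. The 11 marker lists held telencephalic, thalamic, hypothalamic, pituitary, ependymal, choroid plexus, meningeal, oligodendrocyte, astrocyte, general neuronal and red blood cell genes.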

Additional observations from a re-analysis of the deposited data

Results flagged for a closer look

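Of 18 sets of 6 values (the 7 members and both ratios in each group), 3 had a highest pup whose gap to its neighbour was over 0.625 of the range of the group, which is Dixon's critical value. Chance flags about 1 in 20 sets of continuous values, or 0.9 of 18. This rate does not hold for Ucn and Ucn2, whose sets are mostly 0, so their flags rest on 2 and 3 counts in 1 pup each. Ucn3 was at 4.21 CPM in control 6, from 20 counts, and at 1.83 CPM or less in the other controls. Ucn was at 0.644 CPM in MMS 6, which is 2 counts, and at 0 in the other MMS pups. Ucn2 was at 0.646 CPM in control 1, which is 3 counts, and at 0.168 CPM or less in the other controls.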

How the results depend on the processing

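Of Crh, Crhr1, Crhr2 and Crhbp, 0 had an unadjusted p under 0.05 in any alternative run. Ucn2, with 4 counts, had an unadjusted p of 0.0421 (adjusted 0.561) in the edgeR fit without the count filter. The number of genes past an adjusted p of 0.05, 0 in the edgeR fit, was 7 in DESeq2, 1 with library totals only, 1 without the count filter, 4 with 1 surrogate variable and 5 without MMS 2 and MMS 4, and it was 0 to 1 on leaving out 1 library. The cause was not tested. Of the pathway genes, 5 in place of 9 had an unadjusted p under 0.05 without MMS 2 and MMS 4, an alternative chosen after the data were seen. Leaving out 1 library gave log2 fold changes of 0.07 to 0.54 for Crh, -0.43 to -0.29 for Crhr1, 0.15 to 0.43 for Crhbp and -0.01 to 0.46 for Crhr2, which turned without control 5 (-0.012) or MMS 6 (-0.0014). Crh was 0.59 in limma-voom. On the CPM scale the difference was -0.03 to 0.763 for Ucn3 (-0.0295 without MMS 3) and -0.149 to 0.0214 for Ucn, which turned without control 1 (0.0157), without control 4 (0.0214) or without MMS 2 and MMS 4 (0.0141). For Ucn2 it was -0.163 to -0.0335, nearest to 0 without control 1, against -0.136 with all libraries. The difference in the ratio of Crh to Crhbp ran from -0.16 to 0.63 and turned without control 3 (-0.16), control 5 (-0.08) or MMS 3 (-0.07), and that of Crhr1 to Crhr2 ran from -0.95 to -0.42. Crhr1, Crhr2 and Crhbp had too few counts for the fit with a mean of at least 50 counts, and Ucn, Ucn2 and Ucn3 were not run in the tools that use the count filter. At 6 to 31 counts per library, depth limits Crhr2, and it limits Ucn3, Ucn and Ucn2 still more.

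The groups share replicate numbers, and same-numbered libraries deviated little together (r of -0.05 to 0.12, over 0.1 in 2 of 6 pairs). These correlations cannot show whether same-numbered pups were littermates, since littermates need not deviate together. With a replicate block 1 gene passed an adjusted p of 0.05, in place of 0, and the log2 fold changes were 0.44 for Crh, -0.38 for Crhr1, 0.26 for Crhr2 and 0.27 for Crhbp, with no change of call for these 4. In 2 of 6 controls and 1 of 6 MMS libraries the highest correlation was with the library of the same number.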
